A study of Danio rerio with 6 samples.

Results

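The genes described here encode the JNK and p38 protein kinases of the zebrafish, the stress-activated branches of the MAP kinase family. They were chosen by name as the 4 JNK genes mapk8a, mapk8b, mapk9 and mapk10 and the 6 p38 genes mapk11, mapk12a, mapk12b, mapk13, mapk14a and mapk14b. The choice was made with earlier results of these data known. All 10 were found among 32520 gene IDs, each on 1 ID. Transcripts were counted in whole larvae at 5 days after fertilisation, in 3 libraries of pdcd7/cx20 mutants (allele pd1215) and 3 libraries of wild-type siblings. The labels state 40 larvae and 3 replicates, without saying whether 40 larvae entered each library or whether the replicates came from separate clutches, and they give all libraries batch 1. The lesion and the meaning of cx20 are not given in the sources used here, so a difference between the groups cannot be assigned to pdcd7 alone. The p-values measure the spread between these libraries, which may be technical.

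JNK and p38 kinases stand at the end of a relay of kinases. A MAP3K phosphorylates a MAP2K, and the MAP2K switches on JNK or p38 by adding phosphate to a threonine and a tyrosine in its activation loop. MAP2K4 and MAP2K7 act on JNK, MAP2K3 and MAP2K6 on p38, and MAP2K4 can also act on p38. The active kinases phosphorylate transcription factors such as Jun and Atf2 and further kinases such as Mapkapk2, and dual-specificity phosphatases switch them off. In humans, several JNK and p38 genes carry a minor intron, the rare class that the minor spliceosome removes, and the protein encoded by pdcd7 belongs to the U11 particle of that machine. Transcript counts over exons show neither the phosphorylation of a kinase nor whether an intron was removed.

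Library totals lay between 75122088 and 87110177 counts. Values are given in CPM, counts relative to the size of the library after TMM scaling. Levels of different genes are compared only in RPKM, which is CPM divided by the gene's merged exon length in kilobases. PDCD7, the gene named for the line, measured 21.8, 19.6 and 20.5 CPM in mutants, against 14.8, 15.0 and 15.3 CPM in siblings. It was higher in all 3 mutant libraries (log2 0.46 ± 0.05 SE, edgeR adjusted p = 7.92e-08), and with the lesion not given, its level does not check the labels. Of the marker genes found for the labelled whole larvae, 14 of neurons, 19 of fast muscle, 12 of epidermis and 12 of enterocytes passed the filter on low counts, and their summed levels stand beside the kinases of those tissues. In such bulk RNA, fewer cells of a type and less RNA per cell cannot be told apart.

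Of the 10 kinase genes, 7 were higher and 1 was lower in mutants at an adjusted p of at most 0.05 (edgeR's quasi-likelihood test, Benjamini-Hochberg adjustment over all genes). Over all 24248 genes tested, 34.7% were called higher and 34.2% lower, 68.9% in all, so a call by itself sets a kinase little apart. The libraries of the 2 genotypes did not overlap for 8 of the 10, of which 7 were higher and 1 lower. The same held for 72.1% of all tested genes, 36.4% higher and 35.8% lower. Sizes set some of the kinases further out. Because the kinases were chosen with earlier results of these data known, the shares that follow are a description only. The genes mapk8a, mapk14a, mapk8b and mapk9 were called and at least 2-fold higher, 4 of 10, where 3.34% of all tested genes were. The same 4 passed a test against a 1.5-fold change, as did 5.77% of all tested genes in the higher direction. No further kinase joined them at 1.5-fold higher, where 10.7% of all tested genes stood. None of the 10 was at least 1.5-fold lower, against 11.1% of all tested genes. The median log2 fold change was 1.22 over the 4 JNK genes and 0.10 over the 6 p38 genes, beside 0.01 over all tested genes.

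**Figure D1:**
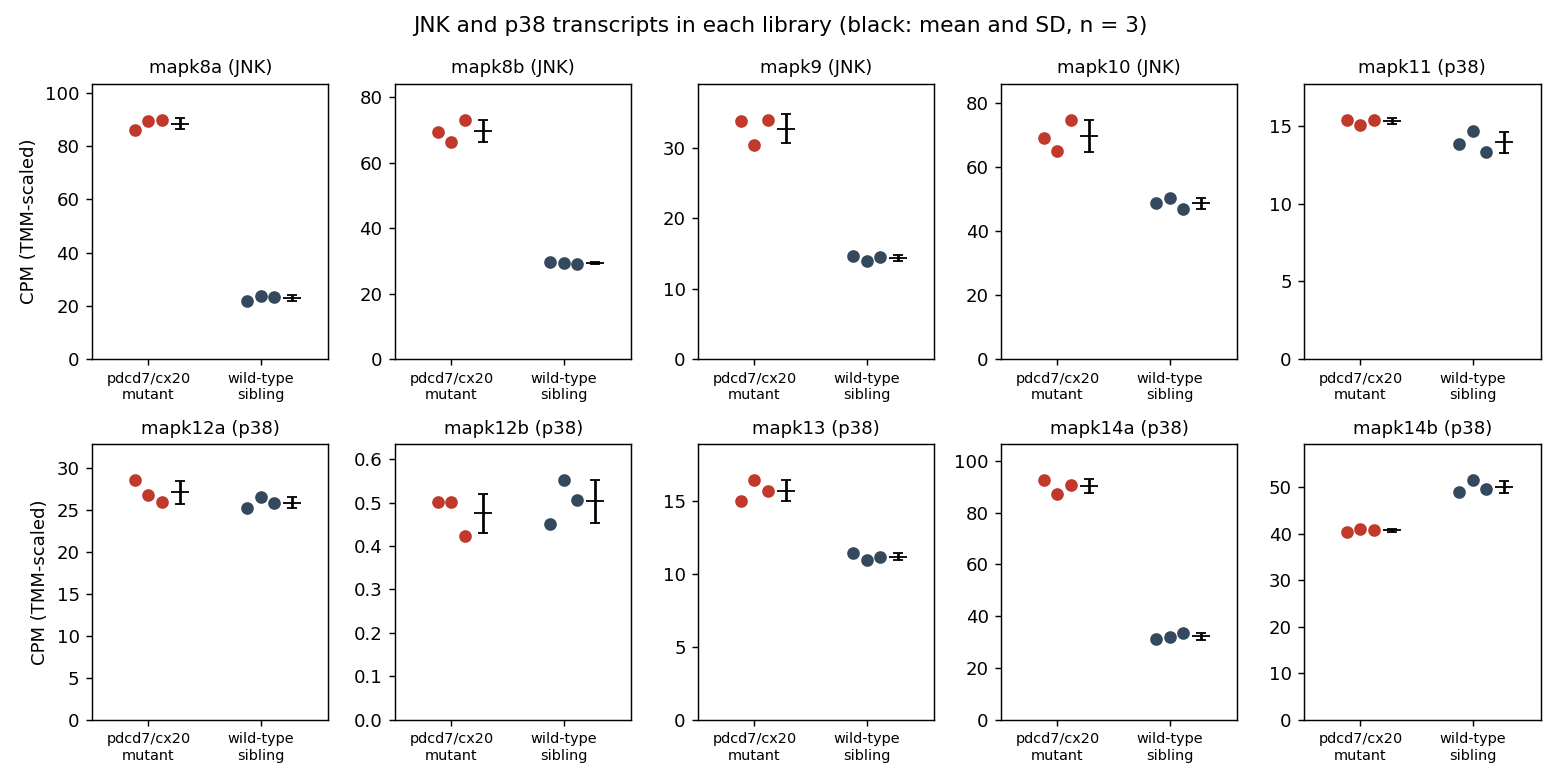
Level of each JNK and p38 transcript in CPM on a linear axis that starts at 0, with 1 point per library (mutants in red, wild-type siblings in dark blue) and the mean and SD of the 3 libraries in black. The mutant points of mapk8a, mapk8b, mapk9 and mapk14a lie at least 2-fold above the sibling points, those of mapk14b lie below them, and the groups overlap for mapk12a and mapk12b.

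The JNK genes mapk8a and mapk8b are the paired zebrafish counterparts of human MAPK8, which encodes JNK1, a broadly expressed kinase. mapk8a (ENSDARG00000031888, chr13:31147518-31167461, minus strand; build GRCz11 here and throughout) measured 86.1, 89.4 and 90.0 CPM in mutants, against 21.8, 23.7 and 23.5 CPM in siblings. Every mutant library held more than any sibling library, and the spread within each group was small beside the gap. The mutant mean was higher by 3.85-fold, a log2 change of 1.94 ± 0.04 SE (edgeR adjusted p = 5.79e-17). This was the furthest rise of the 10 genes, and 0.664% of all tested genes had a larger log2 fold change.

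mapk8b (ENSDARG00000009870, chr12:2505519-2522487, minus strand) measured 69.4, 66.3 and 73.2 CPM in mutants, against 29.5, 29.3 and 28.9 CPM in siblings. The lowest mutant value was more than 2-fold the highest sibling value, and the mutant mean was higher by 2.38-fold, a log2 change of 1.25 ± 0.04 SE (edgeR adjusted p = 7.48e-15). The fitted rise was larger for mapk8a than for mapk8b. The log2 ratio of mapk8a to mapk8b, per length, was -0.17 ± 0.07 in mutants and -0.86 ± 0.08 in siblings (SD, n = 3 each). The ratio was therefore 1.62-fold higher in mutants, and its 3 mutant values all lay above the 3 sibling values. An exact two-sided permutation test gave p = 0.1, the smallest that 3 libraries against 3 allow, and 0.15 after adjustment over 3 pairs of paralogues.

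mapk9 encodes JNK2, the other broadly expressed JNK (ENSDARG00000077364, chr21:32349190-32374656, minus strand). It measured 33.8, 30.4 and 34.0 CPM in mutants, against 14.7, 13.9 and 14.4 CPM in siblings. The groups lay far apart, and the mutant mean was higher by 2.28-fold, a log2 change of 1.19 ± 0.05 SE (edgeR adjusted p = 3.51e-13). A gene on the opposite strand, si:ch211-247j9.1, overlaps mapk9. Its libraries held 1168, 1136 and 1303 counts for mutants and 1029, 1015 and 1041 for siblings. The counting was strand-specific, so its reads were kept apart from those of mapk9.

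mapk10 encodes JNK3, which in mammals is found mainly in the nervous system (ENSDARG00000102730, chr21:9576176-9713292, plus strand). It measured 69.2, 65.1 and 74.9 CPM in mutants, against 48.8, 50.2 and 46.9 CPM in siblings. All 3 mutant libraries stood above all sibling libraries, by a smaller step than for the other JNK genes, and the mutant mean was higher by 1.43-fold, a log2 change of 0.52 ± 0.05 SE (edgeR adjusted p = 1.92e-07). The neuron markers went the other way. Of 14 measured, 12 were lower and 1 higher in mutants, beside 34.2% lower and 34.7% higher over all tested genes. Their summed level was 2757 to 2881 CPM in mutants and 3580 to 3697 CPM in siblings. The part of neuronal RNA in the value of mapk10 was not tested.

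The p38 genes mapk14a and mapk14b are the zebrafish counterparts of human MAPK14, which encodes p38 alpha, the broadly expressed form. They moved in opposite directions. mapk14a (ENSDARG00000000857, chr8:23826985-23860719, plus strand) measured 92.5, 87.4 and 90.8 CPM in mutants, against 31.1, 32.0 and 33.6 CPM in siblings. Its mutant mean was higher by 2.80-fold, a log2 change of 1.48 ± 0.04 SE (edgeR adjusted p = 5.48e-16), and 1.33% of all tested genes had a larger log2 fold change.

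mapk14b (ENSDARG00000028721, chr11:2710530-2760373, plus strand) measured 40.4, 41.1 and 40.8 CPM in mutants, against 49.1, 51.5 and 49.6 CPM in siblings. It was the 1 called fall among the 10 genes. Every mutant library lay below every sibling library, and the mean fell by 18.6% (log2 -0.30 ± 0.03 SE, adjusted p = 2.82e-07 in edgeR). Per length, the pair stood near parity in siblings, where the log2 ratio of mapk14a to mapk14b was 0.09, 0.06 and 0.18. In mutants that log2 ratio was 1.94, 1.83 and 1.90, so the ratio was 3.44-fold higher than in siblings. The 2 groups of ratios did not overlap (exact two-sided permutation p = 0.1, the smallest possible, and 0.15 after adjustment over the 3 pairs). A ratio within a library does not depend on how libraries are scaled. Its level, unlike its change, depends on the merged exon lengths, 3255 bases for mapk14a and 5464 for mapk14b.

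mapk13 encodes p38 delta, which in mammals is prominent in epithelia (ENSDARG00000058470, chr8:10823069-10857042, plus strand). It measured 15.0, 16.4 and 15.7 CPM in mutants, against 11.4, 10.9 and 11.2 CPM in siblings. The groups did not overlap and the mutant mean was higher by 1.40-fold, a log2 change of 0.49 ± 0.05 SE (edgeR adjusted p = 8.00e-08). Epidermis markers were also higher, 8 of 12 called higher and 1 lower, with a summed level of 21251 to 21396 CPM in mutants and 18052 to 18861 CPM in siblings. Enterocyte markers were lower, 9 of 12 called lower and 1 higher, with 1813 to 1991 CPM in mutants and 3288 to 3349 CPM in siblings. The higher one (ANPEP, ENSDARG00000036809) came from a list entry that matched every ANPEP ID. Beside both counts, 34.7% of all tested genes were higher and 34.2% lower. The part of either tissue in the value of mapk13 was not tested.

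mapk11 encodes p38 beta, a close relative of p38 alpha (ENSDARG00000045836, chr4:5506946-5522437, plus strand). It measured 15.4, 15.1 and 15.4 CPM in mutants, against 13.9, 14.7 and 13.3 CPM in siblings. The groups were separated by a narrow gap, and the log2 change was 0.13 ± 0.05 SE (edgeR adjusted p = 0.0203). This call ended in DESeq2 (adjusted p = 0.0637) and without mutant replicate 1 (0.0504), mutant replicate 3 (0.0549), sibling replicate 1 (0.0547) or sibling replicate 3 (0.111).

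The genes mapk12a and mapk12b encode p38 gamma, the form that in mammals is most abundant in skeletal muscle. mapk12a (ENSDARG00000042021, chr18:14844669-14860435, minus strand) measured 28.5, 26.7 and 25.9 CPM in mutants, against 25.2, 26.5 and 25.8 CPM in siblings. These values overlap, and the gene was not called (log2 0.06 ± 0.04 SE, adjusted p = 0.176 in edgeR). It passed the threshold with upper quartile scaling (log2 0.11, adjusted p = 0.0313) and with library size only (log2 0.14, adjusted p = 0.00639). Fast muscle markers were mixed, with 10 of 19 higher and 5 lower, beside 34.7% higher and 34.2% lower over all tested genes. Several of the 19 are TNNI2 genes that the list entry tnni2a.4 matched together. The summed level of the markers overlapped between mutants (49855 to 51783 CPM) and siblings (49661 to 52156 CPM).

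mapk12b (ENSDARG00000006409, chr4:5523690-5530441, plus strand) starts 1252 bases after the end of mapk11, on the same strand. The neighbours differed widely in level. mapk12b was the scarcest of the 10 genes, with 39, 41 and 38 counts in the mutant libraries and 33, 43 and 40 in those of siblings. That is 0.502, 0.500 and 0.423 CPM in mutants, against 0.451, 0.551 and 0.506 CPM in siblings. The groups overlapped and no difference was detectable at this depth (log2 -0.09 ± 0.21 SE, adjusted p = 0.717 in edgeR). The log2 ratio of mapk12a to mapk12b, per length, was 5.44 ± 0.10 in mutants and 5.30 ± 0.11 in siblings (SD, n = 3 each; exact two-sided permutation p = 0.2, and 0.2 after adjustment over the 3 pairs).

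**Figure D2:**
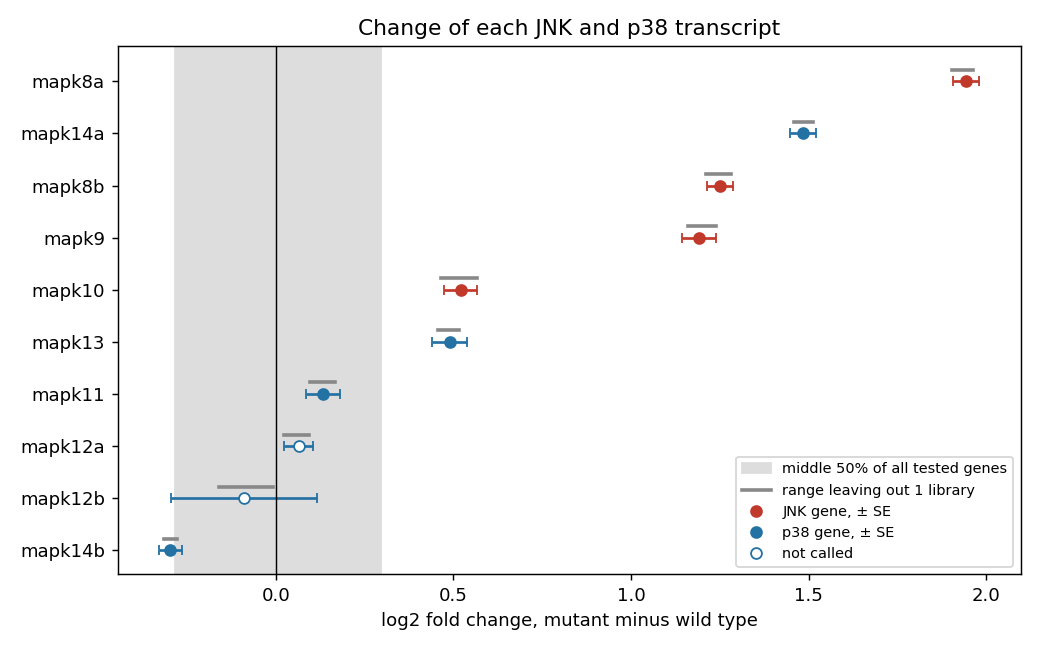
Log2 fold change (mutant minus wild type) of each gene with its SE, JNK genes in red and p38 genes in blue, open symbols for genes that were not called, and above each a grey line that spans the values found when 1 library was left out. The grey band holds the middle 50% of all tested genes. Of the 10 kinase genes, 6 lie to its right and mapk14b lies just to its left.

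Set side by side per length, the order of the 10 genes differed between the genotypes. The order within a genotype depends on the annotated merged exon lengths. In mutants the order from the top was mapk8b (31.1 ± 1.53 RPKM), mapk14a (27.7 ± 0.801), mapk8a (27.6 ± 0.660), mapk10 (23.6 ± 1.66), mapk9 (17.0 ± 1.06), mapk12a (12.2 ± 0.597), mapk13 (10.1 ± 0.445), mapk14b (7.46 ± 0.0672), mapk11 (6.05 ± 0.0773) and mapk12b (0.280 ± 0.0268; SD, n = 3 for each). Only mapk14a and mapk8a, neighbours in that order, had overlapping libraries. In siblings the order was mapk10 (16.5 ± 0.557 RPKM), mapk8b (13.1 ± 0.138), mapk12a (11.6 ± 0.299), mapk14a (9.90 ± 0.384), mapk14b (9.16 ± 0.238), mapk9 (7.44 ± 0.224), mapk8a (7.19 ± 0.325), mapk13 (7.18 ± 0.142), mapk11 (5.52 ± 0.267) and mapk12b (0.297 ± 0.0296; SD, n = 3 for each). There, mapk9 overlapped with mapk8a, and mapk8a with mapk13. mapk10 was thus number 4 in mutants and number 1 in siblings, and mapk8a number 3 in mutants and number 7 in siblings.

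The families differed in how far their total moved. The JNK genes summed to 98.9, 95.4 and 103.8 RPKM in mutants, against 44.2, 44.7 and 43.7 RPKM in siblings. This sum was 2.25-fold higher in mutants. The p38 genes summed to 64.7, 63.2 and 63.4 RPKM in mutants, against 42.9, 44.3 and 43.8 RPKM in siblings, 1.46-fold higher. All 3 mutant sums stood above all 3 sibling sums in each family, with an exact two-sided permutation p = 0.1 for each, the smallest that 3 libraries against 3 allow. The ratio of the JNK sum to the p38 sum was 1.56 ± 0.07 in mutants and 1.01 ± 0.02 in siblings (SD, n = 3 each; exact two-sided permutation p = 0.1).

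Within the JNK sum, mapk8a held 27.9% ± 1.23 in mutants and 16.3% ± 0.740 in siblings, and mapk10 held 23.8% ± 0.646 in mutants and 37.3% ± 0.826 in siblings (SD, n = 3). The share of mapk8b was 31.3% ± 0.211 in mutants and 29.6% ± 0.291 in siblings, a small gap without overlap. That of mapk9 was 17.1% ± 0.614 in mutants and 16.9% ± 0.656 in siblings, and its libraries overlapped. Within the p38 sum, mapk14a held 43.5% ± 0.863 in mutants and 22.7% ± 0.794 in siblings, and mapk14b held 11.7% ± 0.245 in mutants and 21.0% ± 0.268 in siblings. Most of the difference in the p38 sum lay in mapk14a, with a smaller part in mapk13. mapk14b went against it, at 7.46 RPKM in mutants and 9.16 in siblings. The means of mapk11 and mapk12a differed by less than 1 RPKM between the genotypes.

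**Figure D3:**
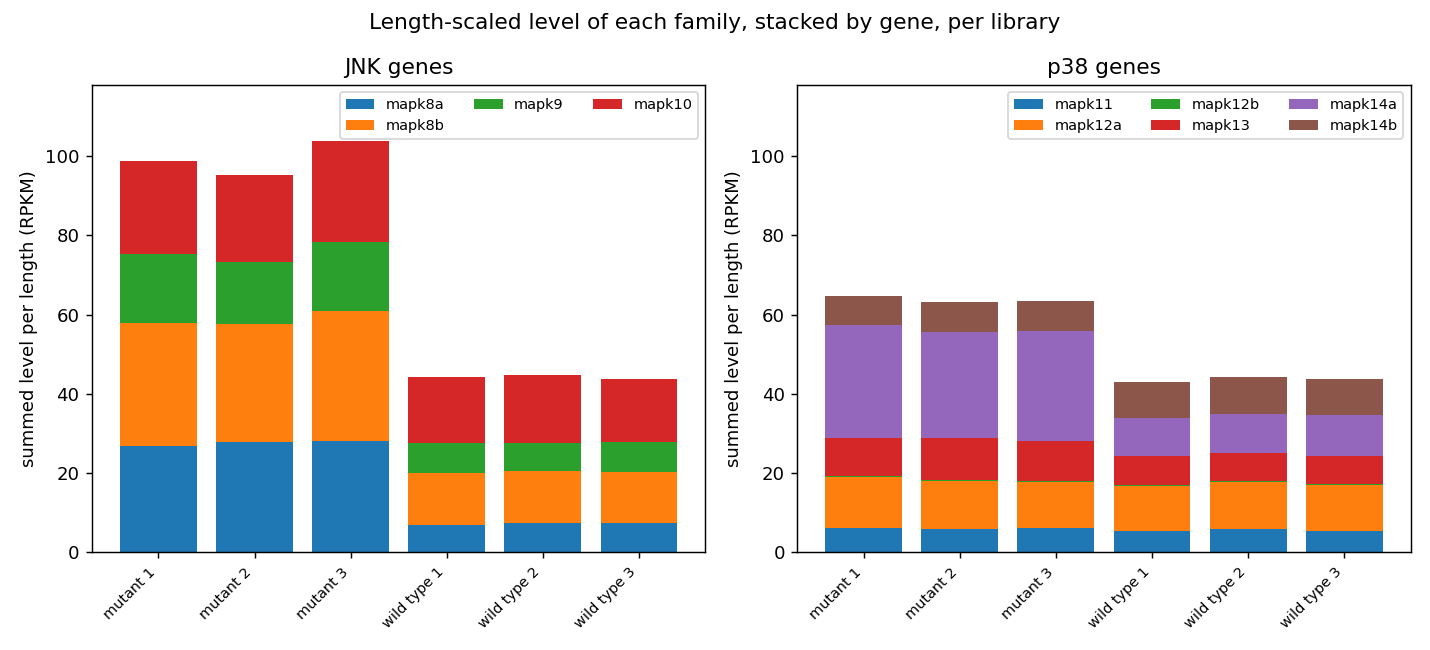
Stacked bars of the length-scaled level (RPKM, linear axis from 0) of the 4 JNK genes (left) and the 6 p38 genes (right) in each of the 3 mutant and 3 wild-type libraries. The JNK bars reach 95.4 to 103.8 RPKM in mutants and 43.7 to 44.7 in siblings, and the purple mapk14a block accounts for most of the added height of the p38 bars.

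None of the other MAP kinases measured was called and at least 1.5-fold higher, where 10.7% of all tested genes stood. Of 7 tested, 1 was higher and 2 were lower, with a median log2 fold change of -0.02. The shares over all tested genes were 34.7% higher and 34.2% lower. MAPK3, which encodes the growth factor kinase ERK1, was called lower, at 130 ± 2.57 CPM in mutants and 137 ± 4.53 CPM in siblings (log2 -0.08 ± 0.03 SE, adjusted p = 0.0270 in edgeR). That call ended with upper quartile scaling (adjusted p = 0.231), with library size only (0.764) and when mutant replicate 1 (0.0801) or sibling replicate 2 (0.0899) or 3 (0.0880) was left out. The called rise was nlk1, a kinase gene of Wnt and Notch signalling (log2 0.21 ± 0.03 SE). With upper quartile scaling or library size only, the split was 2 higher and 1 lower. All tested genes split into 9321 higher and 7429 lower with the former, and 10006 and 6827 with the latter.

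Genes that act on or below the kinases moved both ways. Over 9 lists of the pathway, the other MAP kinases included, 31 of 100 tested genes were higher and 42 lower, with a median log2 fold change of -0.03. With the same TMM scaling, 34.7% of all tested genes were higher and 34.2% lower. With library size only the pathway split was 40 higher and 34 lower, beside 10006 and 6827 of all 24248 tested genes. With upper quartile scaling it was 37 and 37, beside 9321 and 7429. Both scalings moved the split of all tested genes toward higher, so the list splits given with them are read beside that.

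Upstream, the MAP2K genes measured moved little, and map2k3 was not among them because it matched no gene ID. Of 4 tested, 1 was higher and 1 lower, and with library size only 2 were higher and 1 lower. Beside this list and the next, 34.7% of all 24248 tested genes were higher and 34.2% lower. The counts over all of them were 10006 and 6827 with library size only, and 9321 and 7429 with upper quartile scaling. MAP2K6, an activator of p38, measured 58.1 ± 1.59 CPM in mutants and 50.5 ± 0.153 in siblings (SD, n = 3 each; log2 0.20 ± 0.03 SE). map2k4b, a MAP2K4 gene, measured 44.9 ± 0.915 CPM in mutants and 51.6 ± 0.856 in siblings (SD, n = 3 each; log2 -0.20 ± 0.03 SE). Of 27 genes of MAP3Ks and their partners, 9 were higher and 10 lower, against 13 and 7 with library size only and 12 and 7 with upper quartile scaling. MAP3K20, which encodes the ribosome stress kinase ZAK, had the largest rise in that list, at 13.3 ± 0.627 CPM in mutants and 7.27 ± 0.332 in siblings (SD, n = 3 each; log2 0.87 ± 0.06 SE, adjusted p = 2.49e-10 in edgeR). TAB3, a partner of the kinase TAK1, was higher by log2 0.50 ± 0.04 SE. MAP3K5, the oxidative stress kinase ASK1, measured 59.1 ± 0.186 CPM in mutants and 89.3 ± 0.917 in siblings (SD, n = 3 each; log2 -0.60 ± 0.03 SE, adjusted p = 5.31e-12 in edgeR). taok1b (log2 -0.41 ± 0.03 SE) and MAP3K12, the neuronal kinase DLK (log2 -0.42 ± 0.04 SE), were also lower.

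The gadd45 genes encode small stress-induced proteins, which bind and activate MAP3K4. Of 7 tested, 6 were higher and 1 lower, with a median log2 fold change of 0.27. Over all tested genes, 34.7% were higher and 34.2% lower. A GADD45A gene (ENSDARG00000043581) measured 13.6, 14.0 and 14.8 CPM in mutants, against 6.77, 7.15 and 7.57 CPM in siblings (log2 0.98 ± 0.06 SE, adjusted p = 5.27e-11 in edgeR). It was the 1 member of its list called and at least 1.5-fold higher. The other GADD45A gene (ENSDARG00000104571) and a GADD45G gene (ENSDARG00000016725) were higher by log2 0.24 ± 0.04 SE and 0.27 ± 0.05 SE. A second GADD45G gene (ENSDARG00000019417) stood at log2 -0.25 ± 0.04 SE.

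Genes of scaffolds and phosphatases were lower more often than higher, in short lists beside 34.2% lower and 34.7% higher over all tested genes. Of 8 scaffold genes, which hold kinases of a relay together, 4 were lower and 1 higher (median log2 -0.17). The JNK scaffold gene MAPK8IP2 measured 63.6 ± 2.27 CPM in mutants and 93.2 ± 2.34 in siblings (SD, n = 3 each; log2 -0.55 ± 0.03 SE, adjusted p = 1.00e-10 in edgeR). The 2 MAPK8IP1 genes stood at log2 -0.61 ± 0.05 SE (ENSDARG00000090326) and -0.40 ± 0.04 SE (ENSDARG00000102229), and spag9a at 0.19 ± 0.04 SE. In mammals the first 2 of these scaffolds are prominent in the brain, and the neuron markers were lower as given above. The part of neuronal RNA in these values was not tested. Of 10 phosphatase genes, 6 were lower and 0 higher in edgeR with TMM scaling (median log2 -0.15). With upper quartile scaling 6 were lower and 1 higher, beside 7429 and 9321 of all tested genes. With library size only 5 were lower and 1 higher, beside 6827 and 10006.

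DUSP2 showed the largest fall among the phosphatases, with 11.6, 12.3 and 11.9 CPM in mutants, against 27.2, 28.4 and 27.8 CPM in siblings (log2 -1.22 ± 0.04 SE, adjusted p = 5.17e-14 in edgeR). DUSP4, whose product acts on several MAP kinases, was lower by a smaller step (log2 -0.76 ± 0.05 SE). DUSP1, an early response gene whose product removes phosphate from JNK and p38, measured 53.6 ± 2.72 CPM in mutants and 65.1 ± 1.38 in siblings (SD, n = 3 each; log2 -0.28 ± 0.04 SE).

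Among 9 genes of kinases that JNK, p38 or ERK switch on, 5 were lower and 4 higher (median log2 -0.18). The shares over all tested genes were 34.2% lower and 34.7% higher. An MKNK2 gene (ENSDARG00000011373), for a kinase of the translation factor eIF4E, had the largest fall, at 14.1 ± 0.671 CPM in mutants and 42.4 ± 0.733 in siblings (SD, n = 3 each; log2 -1.59 ± 0.04 SE, adjusted p = 9.75e-16 in edgeR). The other MKNK2 gene (ENSDARG00000015164) and mknk1 were lower by smaller steps (log2 -0.68 ± 0.04 SE and -0.51 ± 0.04 SE). MAPKAPK5 and MAPKAPK2, genes of kinases that p38 activates, were higher by log2 0.43 ± 0.05 SE and 0.21 ± 0.04 SE.

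Transcription factors that JNK or p38 phosphorylate were more often lower, 8 of 14 against 4 higher, and 5 against 4 with library size only. Beside them, 34.2% of all tested genes were lower and 34.7% higher, and 6827 and 10006 genes with library size only. The JUN gene, whose product gave JNK its name, was among the 4 higher factors. It measured 154, 148 and 139 CPM in mutants, against 74.1, 74.5 and 75.8 CPM in siblings (log2 0.98 ± 0.04 SE, adjusted p = 9.18e-14 in edgeR). DDIT3, a stress-induced factor that p38 phosphorylates, was higher by log2 0.69 ± 0.04 SE. JUND, mef2ab and an ATF7 gene (ENSDARG00000055481) stood at log2 -0.43 ± 0.04 SE, -0.80 ± 0.07 SE and -0.23 ± 0.03 SE. mef2ab was scarce, at 4.83 ± 0.218 CPM in mutants and 8.43 ± 0.496 in siblings. The more abundant MEF2A (ENSDARG00000031756), at 27.4 ± 1.27 and 29.3 ± 0.903 CPM, was not called (log2 -0.09 ± 0.04 SE, adjusted p = 0.0507 in edgeR). The second ATF7 gene (ENSDARG00000011298) was higher, by log2 0.24 ± 0.04 SE.

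Genes of AP-1, the dimeric factor that Jun forms with Fos or Atf partners, moved both ways. Of 16 tested, 6 were higher and 6 lower, and 8 and 6 with library size only. The shares over all tested genes were 34.7% higher and 34.2% lower, and 10006 and 6827 genes with library size only. ATF3 measured 34.2 ± 1.34 CPM in mutants and 16.9 ± 0.831 in siblings (SD, n = 3 each; log2 1.02 ± 0.04 SE, adjusted p = 9.71e-13 in edgeR), and a JUNB gene (ENSDARG00000074378) stood at log2 0.39 ± 0.05 SE. The early response gene fosaa measured 5.85, 6.97 and 6.40 CPM in mutants, against 19.9, 18.3 and 18.4 CPM in siblings (log2 -1.56 ± 0.06 SE, adjusted p = 2.71e-13 in edgeR). FOSB, of the same family, measured 3.38 ± 0.214 CPM in mutants and 9.97 ± 0.272 in siblings (SD, n = 3 each; log2 -1.56 ± 0.07 SE). Not all relatives moved alike. FOSL1 (ENSDARG00000015355), a Fos family gene, was higher (log2 0.80 ± 0.09 SE), and the other JUNB gene (ENSDARG00000104773) was not called (log2 0.06 ± 0.05 SE).

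**Figure D4:**
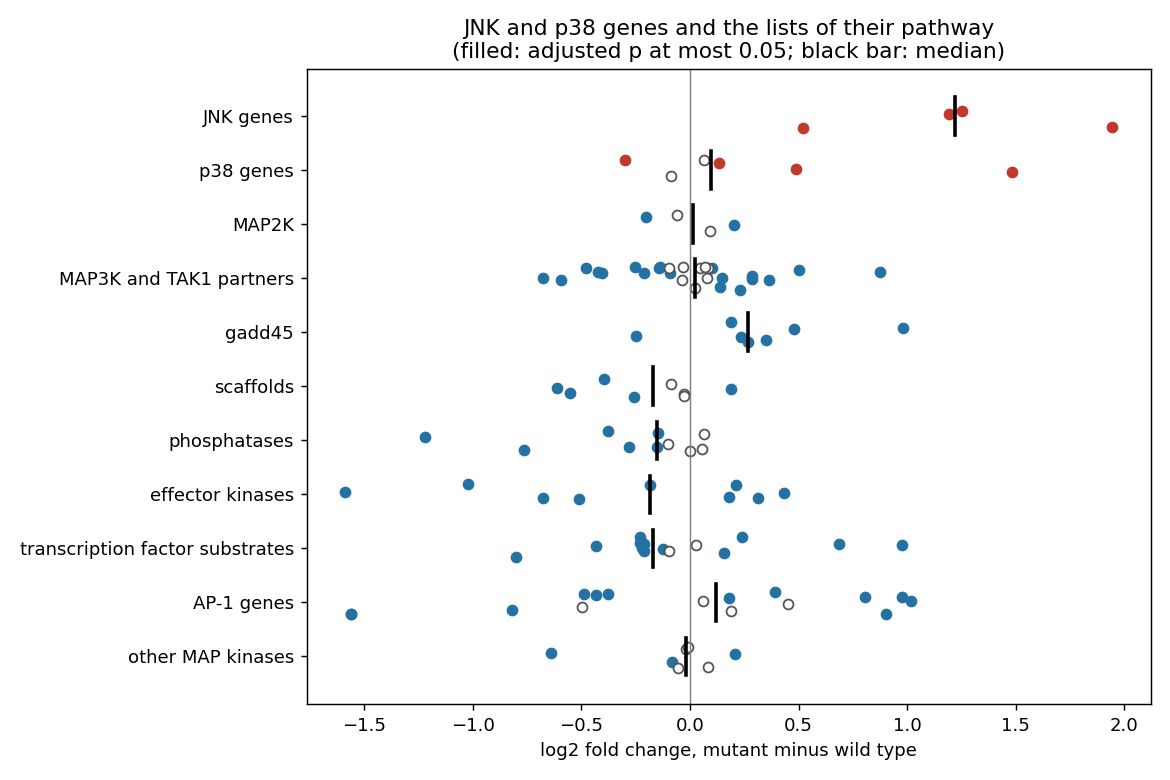
Log2 fold change (mutant minus wild type) of the JNK and p38 genes (red) and of each tested gene on the 9 lists of their pathway (blue), filled where the adjusted p was at most 0.05 and open otherwise, with a black bar at each median. The JNK genes lie at 0.52 to 1.94, the p38 genes at -0.30 to 1.48, and the medians of the pathway lists between -0.18 and 0.27.

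The genes whose profile over the 6 libraries lay nearest to that of mapk8a, by Euclidean distance of centred log2 CPM over 24248 genes, were srpk2, morc3a and bdp1. srpk2, the gene of an SR protein kinase, lay at a distance of 0.16 and measured 65.6 ± 2.25 CPM in mutants and 17.2 ± 0.492 in siblings (SD, n = 3 each). morc3a, of a chromatin ATPase family, lay at 0.18 and measured 63.0 ± 3.26 CPM in mutants and 15.6 ± 0.127 in siblings. bdp1, which encodes a part of the RNA polymerase III factor TFIIIB, lay at 0.23 with 3.71 ± 0.247 CPM in mutants and 0.991 ± 0.0191 in siblings. The nearest to mapk14b were CALM2 (ENSDARG00000015050), a calmodulin gene, TMEM35A and LEF1, a transcription factor gene of Wnt signalling, at distances of 0.03, 0.03 and 0.04 and log2 fold changes of -0.30, -0.31 and -0.32. Profiles of 6 libraries in 2 groups are set mostly by the difference between the groups, so these are genes of like size of change.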

How the data were processed

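Raw gene-level counts of read pairs, as the authors deposited them, came in a separate table for each library and had not been normalized. Per the file headers, featureCounts 1.6.3 assigned pairs to exons of Ensembl release 115 on GRCz11, with strand setting 2 and no option for reads with several alignments, so near-identical copies can lose reads. Per the labels' protocols, stranded mRNA libraries were made. The submitters' processing notes name Trimmomatic 0.38, STAR 2.7.11 and Subread 1.6.3.

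A symbol was found for 29201 of 32520 IDs (89.8%). MAPK8, MAPK12 and MAPK14 stand on 2 IDs each, and their letters were assigned by shared neighbours in RefSeq names of GRCz12tu (11 to 18 shared with the chosen letter, at most 5 with the other). Of 165 list entries, 110 matched exactly, 49 without their letter and 1 by a synonym, and 5 had no match. An entry matched without its letter took every ID of the symbol. The 16 fast muscle entries thus gave 19 genes and the 9 enterocyte entries 12, so paralogues not on a list were counted. No sequences were used here.

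Genes were tested with edgeR 4.0.16 (R 4.3.3; filterByExpr, TMM, robust quasi-likelihood fit on genotype alone, two-sided) and Benjamini-Hochberg adjustment, threshold 0.05. All 10 kinase genes passed the filter. Fold changes run mutant over wild type, and an SE is the log2 fold change over the root of F. A count of 0 would allow 3 counts, at most 0.0410 CPM, counting error only. Sums and ratios were compared by exact permutation (scipy 1.17.1). Alternatives were other scalings and filters, DESeq2 1.42.0, limma-voom (limma 3.58.1), a test against a 1.5-fold change, sums without length scaling, the replicate block, each library left out and, added after seeing the data, no robust estimation. Named genes are the 10 kinases, PDCD7, from each pathway list the 3 called genes of smallest p in the more frequent direction and up to 2 in the other, and the 3 nearest profiles to mapk8a and mapk14b among genes whose symbol is not a code. A result that this rule names is not reported here. The kinases and lists were chosen with earlier results of these data known. Figures were drawn with matplotlib 3.10.9.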

Additional observations from a re-analysis of the deposited data

How the results depend on the processing

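The calls of mapk8a, mapk8b, mapk9, mapk10, mapk13, mapk14a and mapk14b kept their direction and their side of the threshold under every alternative run that tests against no change. mapk12b was not called under any alternative that kept it, and the 1 CPM filter removed it. For mapk11, DESeq2 gave log2 0.13 without a call, and leaving out a library gave log2 0.10 to 0.17. mapk12a was called with upper quartile scaling (log2 0.11) and library size only (log2 0.14), and without 1 library it lay at 0.02 to 0.09. Tested against a 1.5-fold change, 1400 genes of all tested (5.77%) were higher and 1764 (7.27%) lower, and of the 10 kinases 4 were higher and 0 lower. There 6 pathway genes were higher and 8 lower. Leaving out a library gave 6 to 7 kinases higher and 1 lower. The sums and paralogue ratios kept their direction under each alternative run, though library scaling and the block cannot change the differences in the ratios. With 1 library left out, the smallest exact permutation p they reached was 0.2. The libraries that remain allow none smaller, so these p-values cannot show a weakening. Library size only moved the median of all tested genes to log2 0.08.

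Over all tested genes, same-numbered libraries of the 2 genotypes did not deviate together (correlations of 0.02, -0.04 and -0.0023). These values give no sign of a pairing, but a pairing limited to some genes might not show in them. With the replicate block, 8292 genes were higher and 8168 lower, and 7 kinases were higher and 1 lower. For the paralogue ratios, the mean of paired differences equals the difference of the group means, so the block could not change them. The differences in log2 ratio stayed at 0.70 for mapk8a over mapk8b and 1.78 for mapk14a over mapk14b. The smallest p with 3 pairs is 0.25. For mapk12b the depth of 33 to 43 counts limits what can be seen.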
